A study of Mus musculus with 6 samples.

Results

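The genes described here are 46 genes of the interferon response and of antigen presentation, taken by symbol from a count table of 39179 mouse genes. All 46 were found and all 46 passed the filter on low counts, which kept 16839 genes for testing. They comprised 4 interferon receptor subunits, 5 STAT and IRF transcription factors, 15 antiviral interferon-induced genes, 5 interferon-induced GTPases, 2 chemokines, 9 genes of the MHC class I pathway and 6 genes of the MHC class II pathway. RNA sequencing had been carried out on 6 primary osteosarcomas (bone tumors) of mice of a mixed C57BL/6 x 129/Sv x FVB background, in order to ask which transcripts depend on the hyaluronan receptor CD44. Tumors No244, No316 and No368 were Cd44+/+; Nf2Δ2/+ and tumors No203, No279 and No364 were Cd44-/-; Nf2Δ2/+, so every tumor, the Cd44+/+ ones included, arose in a mouse with one mutated copy of the tumor suppressor gene Nf2. The tissue had not been treated with doxorubicin, and the age of the mice was not given in the sources used here.

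Interferons are secreted proteins that signal through paired receptor chains and JAK kinases to STAT transcription factors. Type I interferons lead to a complex containing STAT2 and IRF9 that binds the interferon-stimulated response element (ISRE), and interferon-gamma signals mainly through the gamma-activated sequence (GAS). The induced genes encode antiviral effectors, GTPases that act on membranes around intracellular microbes, chemokines that attract T cells, and the proteins that cut, transport and display peptides on MHC molecules. Class I molecules are present on most nucleated cells, whereas class II molecules belong mainly to antigen-presenting cells such as dendritic cells, macrophages and B cells.

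No gene of the set passed the threshold between the genotypes. The 46 adjusted p-values lay between 0.452 and 0.988 (edgeR quasi-likelihood test, Benjamini-Hochberg adjustment over 16839 genes), and 0 of all genes tested, or 0%, had an adjusted p under 0.05. At an unadjusted p under 0.05 stood 6 of the 46 genes, 13.0% of them against 10.7% of all genes tested. Higher in Cd44-/- tumors were Ifitm3, Igtp, Iigp1 and Cxcl10, 4 of 46 against a background of 6.44%, and lower were the interferon-gamma receptor chain Ifngr1 and the transcription factor Irf8, 2 of 46 against 4.31%. The genotypes did not overlap in 5 of the 46 genes (10.9%), against 19.1% of all genes tested. All Cd44-/- values lay above all Cd44+/+ values for Ifitm2, Ifitm3 and Tap2, where the background was 9.49%, and below for Ifngr1 and Irf8, where it was 9.57%. With edgeR these shares stood near or below the background.

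The fitted difference was above 0 for 36 genes (78.3%) and below 0 for 10, with a median log2 fold change of 0.86, beside 55.1% above 0 and a median of 0.11 for all genes tested. With DESeq2, 11 of the 44 genes given a p (25%) had an unadjusted p under 0.05, against 11.1% of all genes given one, and the lowest adjusted p of the set was 0.0653, for Irf8. DESeq2 called 419 genes over the whole table at an adjusted p under 0.05, and none of them was in the set. Libraries No316 and No368 were nearly identical (below), and with their counts summed as 1 sample Irf8 was the single gene of the set with an unadjusted p under 0.05.

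**Figure D1:**
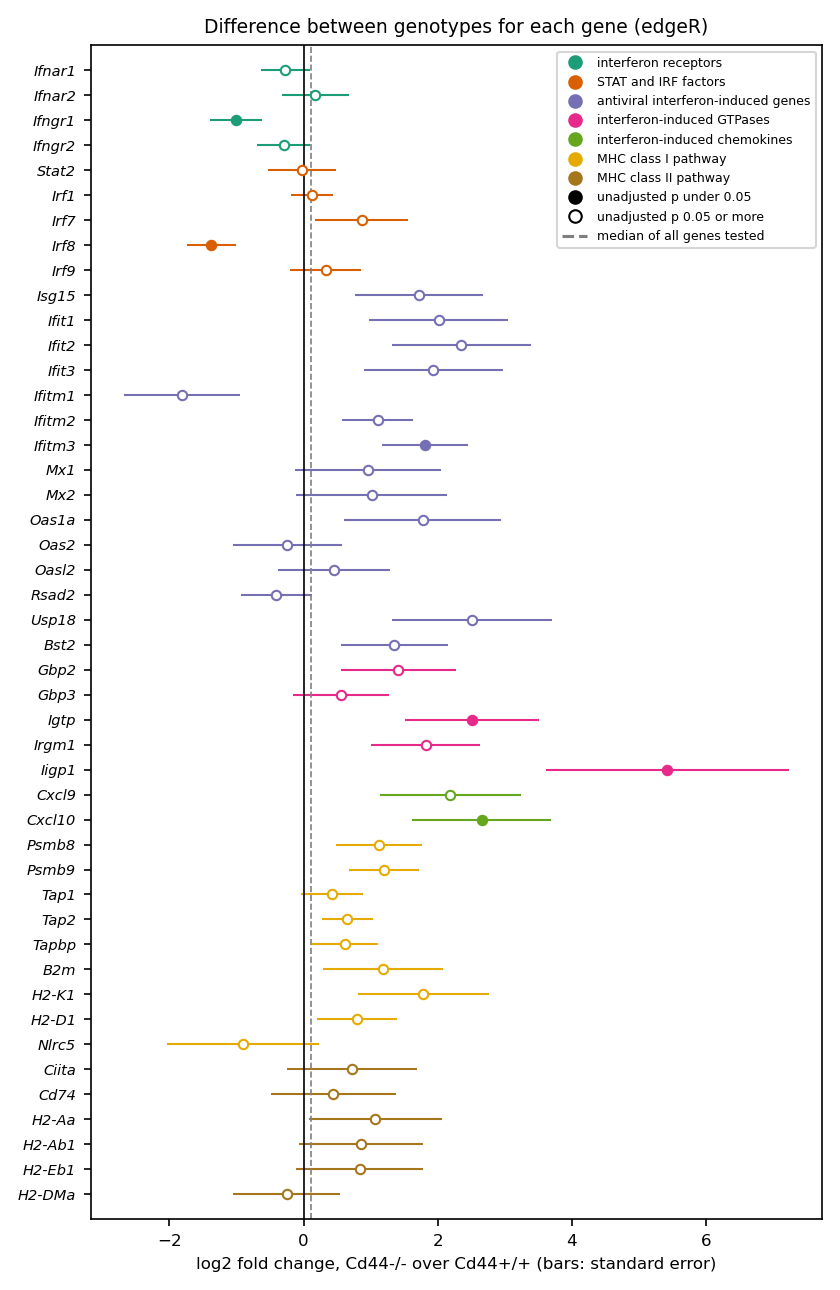
Log2 fold change of Cd44-/- over Cd44+/+ tumors for each of the 46 genes (horizontal axis), colored by role, with bars of 1 standard error from edgeR. Filled points have an unadjusted p under 0.05, the dashed line is the median of all genes tested (0.11), and 36 points lie above 0.

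The libraries held 18076388 to 26954142 counts, and levels are given as CPM, each count divided by the library total and rescaled to a common size, with a trimmed mean of M-values (TMM) correction between libraries. Where 3 values stand for a genotype, they follow the order No244, No316, No368 for Cd44+/+ and No203, No279, No364 for Cd44-/-. A floor of 3 counts corresponded to 0.0990 to 0.252 CPM, and the lowest count of any gene of the set in any tumor was 5. Cd44 itself was at 137, 243.6 and 240 CPM (Cd44+/+) against 19.2, 15.7 and 61.8 CPM (Cd44-/-), so its level followed the labels. Its log2 fold change was -2.68 (SE 0.65, edgeR adjusted p = 0.452), so the deleted gene did not pass the threshold in this fit either. An adjusted p above the threshold is thus no sign that a gene was unchanged. Libraries No316 and No368 differed by no more than counting noise in 87.2% of 16671 genes, whereas the other 14 pairs of libraries did so in 15.7 to 23.98%. They were therefore counted as 1 sample in means and SDs, which leaves n = 2 for Cd44+/+ and n = 3 for Cd44-/-. The fit used all 6 libraries, so the SEs and p-values printed beside these means treat No316 and No368 as independent samples. In No244, 55.2% of the counts fell on mitochondrial genes (95% Wilson interval 55.1 to 55.2%) and 5.94 to 12.5% in the others. The sum of 10 hepatocyte markers was 142817 CPM in No364 and 82.3 to 189 CPM elsewhere. Of 7 osteoblast lineage markers, Sp7, Ibsp and Dmp1 were close to absent in No279 (0.363 to 3.96 CPM) and No364 (0.314 to 2.25 CPM). The other tumors had 147 to 4820 CPM of each. Alpl and Bglap were also low, at 7.16 and 4.79 CPM in No279 and 19.6 and 6.80 CPM in No364. Runx2 was at 68.3 CPM in No279, 5.76 CPM in No364 and up to 173 CPM in the other tumors. The collagen gene Col1a1 was at 11990 CPM in No279, above its 8482 CPM in No244, and at 765 CPM in No364. No364 was thus below the other tumors, No279 aside, in every marker of the list, whereas No279 kept Runx2 and Col1a1. In No244 the sum of 4 skeletal muscle markers was 13918 CPM, against 10.4 to 448 CPM in the other libraries.

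Single tumors lay far apart. Between the highest and the lowest of the 5 independent samples the median ratio over the 46 genes, after adding 1 CPM, was 7.22, and over all genes tested it was 3.11. No364 held the highest level of 24 of the 46 genes (52.2%) and No279 that of 15 (32.6%), where over all genes tested these tumors held the highest level of 25.4% and 22.1%. No203, which is also Cd44-/-, held the highest level of none of the 46 and the lowest of 27 (58.7%), against 13.2% of all genes tested. The Cd44-/- group thus contained the tumors at both ends.

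**Figure D2:**
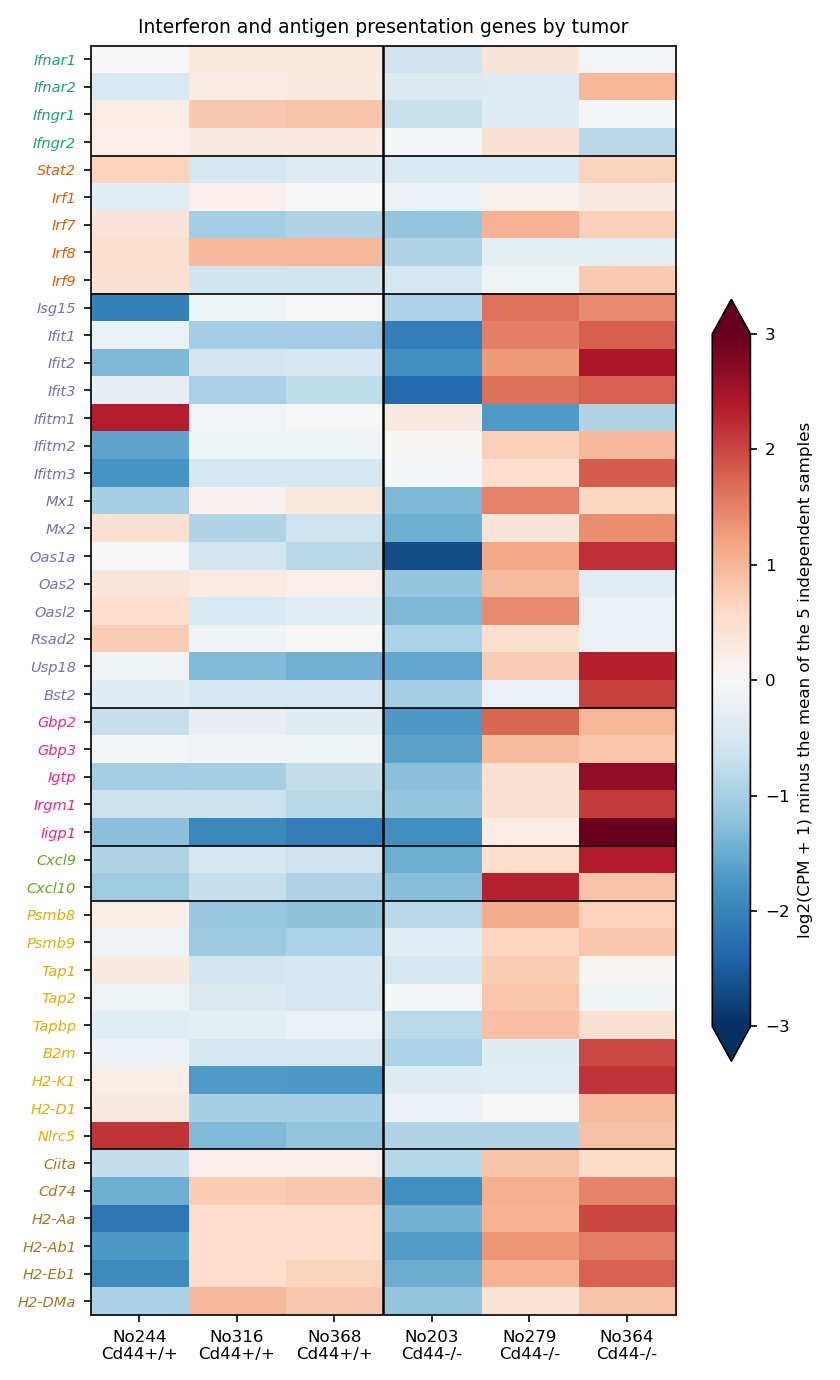
Level of the 46 genes (rows, by role) in the 6 tumors (columns), as log2(CPM + 1) minus the mean of the 5 independent samples. The color scale ends at 3, which Iigp1 in No364 exceeds, and a reader should see No203 as mostly blue, No279 and No364 as mostly red and the near-identical columns No316 and No368.

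The median log2(CPM + 1) of the 15 antiviral genes was 3.48, 2.89 and 2.98 (Cd44+/+) against 1.72, 4.66 and 4.85 (Cd44-/-). For the 5 GTPases the corresponding medians were 2.96, 3.42 and 3.30, then 1.98, 4.52 and 6.26. The antiviral genes and GTPases were therefore lowest in No203. The 9 class I genes had medians from 4.93 in No368 to 6.43 in No279, with No203 at 5.39 and No364 at 6.01. The 6 class II genes formed another order, at 3.92 in No244 and 4.15 in No203 against 6.26 to 7.39 in the other libraries. For receptors the medians lay between 5.55 and 6.11 in all tumors. In bulk tumor RNA, fewer cells of a type and less RNA per cell cannot be told apart.

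No203 held the lowest level of 27 of the 46 genes, so leaving it out removed the lowest Cd44-/- value of these. Without No203, 19 of the 46 genes (41.3%) had an unadjusted p under 0.05, against 17.6% of all genes tested. Of the 19, 17 were higher in Cd44-/- tumors, where 1720 of all 17574 genes tested were higher and 1365 lower at such a p. The genotypes then did not overlap in 30 genes, 27 of them above, against 37.8% and 18.7% of all genes tested. The lowest adjusted p of the set was still 0.168. Leaving out No364 instead, 2 genes remained with an unadjusted p under 0.05, Irf8 and Ifngr1, both lower, against 8.82% of all genes, and 30 of the 46 fitted differences were above 0. Without No279, 4 genes had an unadjusted p under 0.05 (3 higher, 1 lower, against 10.9% of all genes), and without No244 it was 5 (3 higher, 2 lower, against 10.8%).

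Sequence before the start of the genes is shown next for 6 genes of the induced groups, because the element that defines the response stands there. A link between this element and the levels in these tumors was not tested. Promoters of 300 bases (250 before to 50 after the start annotated by RefSeq, assembly GRCm38.p6) were found for 36 of the 46 genes. The core of the ISRE was searched as GAAANNGAAA on both strands, with overlapping matches counted, and it was present in 15 of the 36 genes (41.7%), against 3.44% of 32851 promoters of the same length and 3.99% of 27025 genes. It was found in 8 of 11 antiviral genes, 4 of 4 GTPases (Gbp2, Gbp3, Igtp and Irgm1) and 1 of 2 chemokines. Among the other roles it was found in B2m, 1 of 7 class I genes, in Stat2, 1 of 5 transcription factors, and in 0 of 3 class II genes and 0 of 4 receptors. The GAS core TTCNNNGAA was present in 10 of 36 genes (27.8%), against 8.30% of all promoters and 9.55% of genes, and Irf8 had 2 matches. A match describes the letters of the reference sequence and was not tested as a binding site. Windows of 100 bases are printed on the strand of the gene, with capitals marking the matches to the ISRE core. Igtp, Irgm1, Ifitm2 and Cxcl10 are genes with full statistics below, and Isg15 and Oas1a were added after their values had been seen, for their overlapping matches.
Igtp, chr11:58199456-58199555, + strand: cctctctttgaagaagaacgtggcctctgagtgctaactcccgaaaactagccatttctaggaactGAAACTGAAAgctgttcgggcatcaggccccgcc
Irgm1, chr11:48871421-48871520, - strand: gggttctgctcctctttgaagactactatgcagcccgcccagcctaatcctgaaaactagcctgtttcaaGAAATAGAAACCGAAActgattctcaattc
Ifitm2, chr7:140955962-140956061, - strand: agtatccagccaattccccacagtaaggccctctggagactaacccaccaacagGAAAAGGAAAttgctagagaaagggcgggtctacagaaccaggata
Isg15, chr4:156200819-156200918, - strand: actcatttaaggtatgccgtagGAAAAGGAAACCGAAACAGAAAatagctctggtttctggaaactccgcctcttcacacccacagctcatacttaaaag
Oas1a, chr5:120907526-120907625, - strand: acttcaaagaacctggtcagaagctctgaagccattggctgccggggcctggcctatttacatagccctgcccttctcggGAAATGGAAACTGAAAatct
Cxcl10, chr5:92349040-92349139, - strand: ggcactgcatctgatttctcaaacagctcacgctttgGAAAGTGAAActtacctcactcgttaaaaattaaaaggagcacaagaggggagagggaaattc

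**Figure D3:**
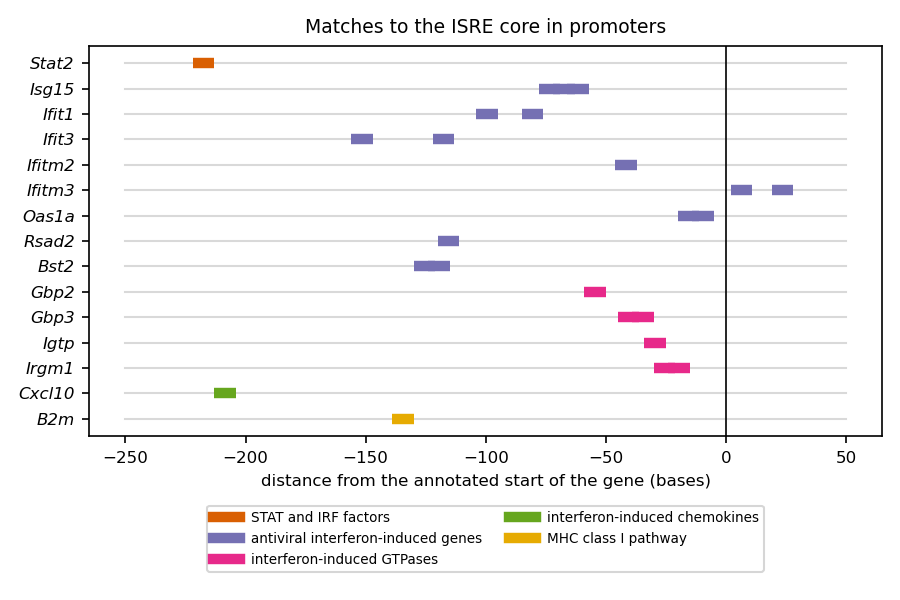
Matches to the ISRE core (colored blocks of 10 bases, by role) in the promoters of the 15 genes that hold 1, by distance in bases from the annotated start. Most blocks lie before the start, and the 2 blocks of Ifitm3 lie after it.

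The interferon genes looked for were at or under the floor of 3 counts in every tumor. Of 10 interferon genes looked for, among them Ifnb1, Ifng and 4 interferon-alpha genes, 6 had 0 counts in every tumor and none passed the filter. The highest count was 3, for Ifnb1 and Ifng in No279, which is at the floor. The receptors were present in every tumor. Ifngr1, the ligand-binding chain of the interferon-gamma receptor (chr10:19591949-19610229), was at 152, 229 and 236 CPM (Cd44+/+) against 80.7, 101 and 125 CPM (Cd44-/-). Its 3 Cd44-/- values lay below all Cd44+/+ values on this scale. Scaled by library size alone, 0 of the 46 genes lay below in this way. The means were 192 ± 56.8 CPM (SD, n = 2) and 102 ± 22.2 CPM (SD, n = 3), a log2 fold change of -1.01 (SE 0.39, edgeR adjusted p = 0.452). Ifngr1 was also the receptor gene with the highest mean level per length, 48.5 CPM per kb. The accessory chain Ifngr2 and the type I receptor chains Ifnar1 and Ifnar2 had log2 fold changes of -0.30, -0.27 and 0.18, and their values overlapped between the genotypes. Ifnar2 reached 113 CPM in No364 against 40.2 to 67.3 CPM in the other libraries, and its fitted difference was -0.46 without No364.

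Among the transcription factors, Irf8 had the smallest unadjusted p. Irf8, which directs the development of macrophages and dendritic cells (chr8:120736358-120756694), was at 24.8, 35.4 and 35.7 CPM (Cd44+/+) against 8.88, 14.2 and 14.0 CPM (Cd44-/-). The groups did not overlap on this scale, but they did when scaled by library size alone. Means were 30.2 ± 7.61 CPM (SD, n = 2) and 12.4 ± 3.01 CPM (SD, n = 3), and the log2 fold change was -1.37 (SE 0.37, edgeR adjusted p = 0.452). Over 17 alternative settings its log2 fold change stayed between -1.53 and -1.21, with adjusted p-values from 0.0653 to 0.989 and an unadjusted p under 0.05 in 16. The sum of 10 macrophage markers ranged from 511 to 1356 CPM in Cd44+/+ and from 516 to 998 CPM (Cd44-/-), and that of 8 dendritic cell markers from 37.9 to 42.3 CPM and from 29.4 to 36.4 CPM. Although the macrophage sums overlapped, 7 of the 10 macrophage markers had fitted differences below 0 and 3 above, with a median of -1.42. Cd68 (1.25) was among those above. Zbtb46 was the largest part of the dendritic cell sums in the Cd44+/+ tumors and No203, and Itgax in No279 and No364. Zbtb46 was at 32.4, 24.5 and 23.7 CPM (Cd44+/+) against 20.7, 10.3 and 6.18 CPM (Cd44-/-). Itgax was at 5.21, 10.9 and 10.7 CPM against 4.32, 19.2 and 15.1 CPM. The dendritic cell list was mixed in direction, since 4 of its 6 tested markers had fitted differences above 0 (median 0.55), Flt3 (2.13) and Cd209a (1.84) among them. The part of these cells in the Irf8 levels was not tested.

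Irf7, the factor that amplifies type I interferon production, varied most among the factors. It was at 31.7, 11.4 and 12.3 CPM (Cd44+/+) against 10.03, 50.5 and 40.3 CPM (Cd44-/-), so the genotypes overlapped. Irf1, an activator of class I genes and the factor with the highest mean level per length (8.94 CPM per kb), ranged from 28.0 to 39.2 CPM in Cd44+/+ and from 31.2 to 42.8 CPM in Cd44-/- tumors. It was the steadiest gene of the set, with a ratio of 1.53 between the highest and lowest sample. Stat2 and Irf9, subunits of the ISRE-binding complex, had log2 fold changes of -0.03 and 0.33. Both were highest in No244 or No364, at 59.5 and 58.0 CPM for Stat2 and at 27.7 and 35.4 CPM for Irf9, and lower elsewhere (25.5 to 27.5 and 12.8 to 18.3 CPM).

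The antiviral genes varied widely, with a median ratio of 11.98 between the highest and lowest sample after adding 1 CPM. The 3 Ifitm genes, neighbors on chromosome 7 that encode membrane proteins blocking virus entry, differed in direction. Ifitm3 (chr7:141009586-141010770) was at 38.5, 94.9 and 92.9 CPM (Cd44+/+) against 131, 192 and 472 CPM (Cd44-/-). The lowest Cd44-/- value thus exceeded the highest Cd44+/+ value, with means of 265 ± 182 CPM (SD, n = 3) and 66.2 ± 39.2 CPM (SD, n = 2) and a log2 fold change of 1.81 (SE 0.65, edgeR adjusted p = 0.452) that was 1.10 without No364. Ifitm2 (chr7:140954837-140955987) was at 43.8, 121 and 122 CPM and at 136, 221 and 261 CPM in the same order, which also leaves the groups apart. Its means were 82.6 ± 54.9 CPM (SD, n = 2) and 206 ± 63.4 CPM (SD, n = 3), with a log2 fold change of 1.11 (SE 0.53, edgeR adjusted p = 0.484).

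Ifitm1 (chr7:140967221-140969825) had a fitted difference of the opposite sign. It was at 241, 44.1 and 47.2 CPM (Cd44+/+) against 56.2, 13.7 and 24.4 CPM (Cd44-/-), so No203 lay among the Cd44+/+ tumors. Means were 143 ± 138 CPM (SD, n = 2) and 31.5 ± 22.1 CPM (SD, n = 3), and the log2 fold change was -1.82 (SE 0.86, edgeR adjusted p = 0.483). Without No244 it was -0.54. Per length, the ratio of Ifitm3 to Ifitm1 went from 0.257 in No244 through 3.18 to 3.75 in No368, No316 and No203 to 22.5 in No279 and 31.2 in No364. Ifitm3 and Ifitm2 had the highest mean levels per length of the antiviral genes, at 273 and 239 CPM per kb. Of the 51-base windows in the Ifitm2 transcripts, 48.3% also occur in another gene, so its count may depend on how reads with several matches were treated.

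The Ifit genes encode proteins that bind foreign RNA and form a cluster on chromosome 19. Ifit2 (chr19:34550694-34576419) was at 3.61, 7.02 and 7.26 CPM (Cd44+/+) against 2.30, 27.3 and 62.3 CPM (Cd44-/-). No203 was the lowest of all 6 tumors, and the other Cd44-/- tumors were the highest. The means were 5.38 ± 2.495 CPM (SD, n = 2) and 30.6 ± 30.1 CPM (SD, n = 3), with a log2 fold change of 2.36 (SE 1.04, edgeR adjusted p = 0.463) that was 1.31 without No364. Ifit1 and Ifit3 were likewise lowest in No203 and highest in No364, with 1.35 and 1.67 CPM in No203 and 33.2 and 44.7 CPM in No364. Their ratio per length stayed between 1.88 and 2.77 in all 6 tumors, although 50.8% of the windows of Ifit3 occur in other genes, chiefly Ifit3b.

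Oas1a, a sensor of double-stranded RNA, had the largest ratio between tumors of the antiviral genes. It was at 10.2, 6.78 and 5.37 CPM (Cd44+/+) against 0.793, 24.4 and 51.2 CPM (Cd44-/-). With 57.0% of its windows in other genes, chiefly Oas1g, this level is uncertain. Usp18 (chr6:121245906-121270917), the protease that removes ISG15 from proteins and limits type I signaling, was at 4.20, 1.29 and 1.09 CPM (Cd44+/+) against 0.952, 8.45 and 27.8 CPM (Cd44-/-). Here too No203 was lowest. Means were 2.70 ± 2.13 CPM (SD, n = 2) and 12.4 ± 13.9 CPM (SD, n = 3), for a log2 fold change of 2.51 (SE 1.198, edgeR adjusted p = 0.484) that was 1.13 without No364. The ubiquitin-like Isg15 ranged from 1.008 to 7.26 CPM in Cd44+/+ and from 3.29 to 24.3 CPM in Cd44-/- tumors.

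The remaining antiviral genes showed no common direction by genotype. Bst2, a tether that holds budding virus at the cell surface, was at 25.4 to 45.7 CPM in 5 libraries and 222 CPM in No364, and without No364 its log2 fold change moved from 1.35 to -0.10. Mx1 and Mx2, dynamin-like GTPases against viruses, stayed under 10 CPM, with ranges of 0.397 to 8.98 and 0.357 to 8.90 CPM. Oas2 and Rsad2 had log2 fold changes of -0.24 and -0.40, and Oasl2 one of 0.46. Of the 15 antiviral genes, No203 was lowest for 11.

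**Figure D4:**
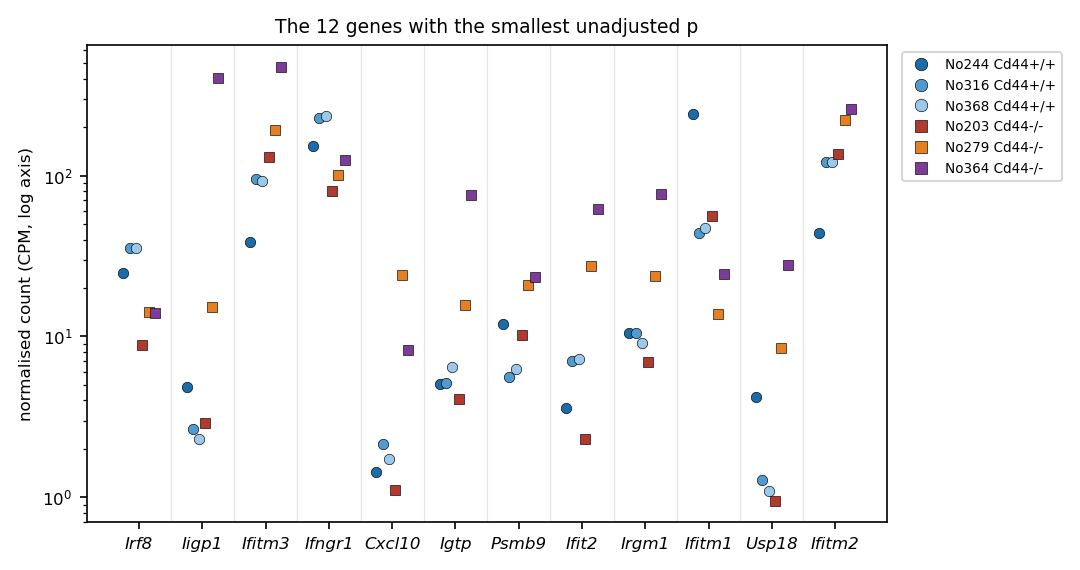
Level in each of the 6 tumors (CPM, log axis) of the 12 genes with the smallest unadjusted p, circles for Cd44+/+ and squares for Cd44-/-. Values of the genotypes are apart for Irf8, Ifngr1, Ifitm3 and Ifitm2, whereas for Iigp1, Igtp, Ifit2, Irgm1 and Usp18 the No203 square lies among or below the circles.

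The 5 GTPases all had fitted differences above 0, and 2 of them, Iigp1 and Igtp, an unadjusted p under 0.05, where 55.1% of all genes were above 0 and 6.44% had such a p and were higher. Iigp1, an immunity-related GTPase that acts on vacuoles of intracellular parasites, was at 4.87, 2.68 and 2.31 CPM (Cd44+/+) against 2.89, 15.3 and 404 CPM (Cd44-/-). A single tumor set the mean, 141 ± 228 CPM (SD, n = 3) against 3.68 ± 1.68 CPM (SD, n = 2). The log2 fold change was 5.43 (SE 1.81, edgeR adjusted p = 0.452), and without No364 it was 1.49. Its ratio between the highest and lowest sample, 162, was the largest of the 46 genes.

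Igtp, also an immunity-related GTPase (chr11:58199556-58207591), was at 5.04, 5.14 and 6.47 CPM (Cd44+/+) against 4.08, 15.6 and 75.8 CPM (Cd44-/-). The means were 5.42 ± 0.540 CPM (SD, n = 2) and 31.8 ± 38.5 CPM (SD, n = 3), with a log2 fold change of 2.52 (SE 0.998, edgeR adjusted p = 0.456) that was 0.83 without No364. It shares 11.6% of its windows with other genes, chiefly its overlapping neighbor Irgm2. Irgm1 (chr11:48861968-48871683), a regulator of the same family, was at 10.5, 10.6 and 9.15 CPM and at 6.98, 23.6 and 76.3 CPM. Again No203 was lowest and No364 highest. Means of 10.2 ± 0.456 CPM (SD, n = 2) and 35.6 ± 36.2 CPM (SD, n = 3) gave a log2 fold change of 1.82 (SE 0.81, edgeR adjusted p = 0.464), which was 0.61 without No364.

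The guanylate-binding proteins Gbp2 and Gbp3 were instead highest in No279. Gbp2 was at 40.8 CPM there and 23.97 CPM in No364, and Gbp3 at 21.9 and 20.1 CPM. Both were lowest in No203, at 2.82 and 2.93 CPM, with the Cd44+/+ tumors at 6.81 to 9.70 and 9.99 to 10.5 CPM. Their log2 fold changes were 1.41 and 0.56, and 0.66 and 0.18 without No279.

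Both chemokines bind the receptor CXCR3 on activated T cells. Cxcl10 (chr5:92346638-92348889) was at 1.43, 2.15 and 1.72 CPM (Cd44+/+) against 1.11, 24.2 and 8.22 CPM (Cd44-/-). Its highest tumor was No279, unlike the immunity-related GTPases. The means were 1.68 ± 0.360 CPM (SD, n = 2) and 11.2 ± 11.8 CPM (SD, n = 3), with a log2 fold change of 2.65 (SE 1.04, edgeR adjusted p = 0.452), 2.84 without No364 and 1.39 without No279. Cxcl9 was at 2.44, 3.58 and 3.15 CPM and at 1.31, 8.19 and 32.4 CPM, highest in No364. Markers of the cells these chemokines attract were low but detected, the highest single values being 3.33 CPM for Cd4 in No279 among T cell markers and 2.25 CPM for Klrd1 in No364 among NK cell markers. The sum of 8 T cell markers was 2.57 to 8.91 CPM in Cd44+/+ and 2.78 to 16.5 CPM (Cd44-/-), with Cd8b1 at 0 in at least 1 tumor. That of 7 NK cell markers was 1.18 to 1.36 CPM and 1.35 to 6.33 CPM, with Ncr1, Prf1 and Gzma each at 0 in at least 1 tumor. Both sums were highest in No364, at 16.5 and 6.33 CPM, and second among the Cd44-/- tumors in No279, at 6.999 and 3.47 CPM. The T cell sum of No244, at 8.91 CPM, was above that of No279, although Cxcl10 and Cxcl9 were at 1.43 and 2.44 CPM in No244. Their part in the chemokine levels was not tested.

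The class I pathway showed 8 of 9 fitted differences above 0 and none with an unadjusted p under 0.05. Psmb9, an inducible catalytic subunit of the immunoproteasome (chr17:34181987-34187764), was at 11.9, 5.596 and 6.26 CPM (Cd44+/+) against 10.2, 20.8 and 23.5 CPM (Cd44-/-). Only No203 and No244 overlapped. Means were 8.93 ± 4.25 CPM (SD, n = 2) and 18.1 ± 7.05 CPM (SD, n = 3), and the log2 fold change was 1.196 (SE 0.52, edgeR adjusted p = 0.462). Psmb8, a further such subunit encoded nearby, followed with 16.4 to 44.95 CPM in Cd44+/+ and 21.6 to 85.4 CPM in Cd44-/- tumors. The peptide transporter subunit Tap2 was at 29.4 to 38.2 CPM and 38.9 to 76.6 CPM, which just separates the groups, whereas its partner Tap1 overlapped (18.1 to 33.0 and 18.8 to 46.9 CPM). Tapbp, which links the transporter to class I molecules, had a log2 fold change of 0.62.

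B2m, the invariant light chain of class I molecules, was the most abundant gene of the set per length, with a mean of 1295 CPM per kb. It was at 715, 584 and 580 CPM (Cd44+/+) against 421, 631 and 3221 CPM (Cd44-/-). The 5 libraries other than No364 thus lay within 421 to 715 CPM, and the log2 fold change of 1.19 was -0.24 without No364. The heavy chain gene H2-K1 had the largest ratio between samples in the pathway. It was at 410, 109 and 108 CPM and at 275, 286 and 1602 CPM, and the other heavy chain gene H2-D1 at 420, 174 and 172 CPM and at 308, 347 and 673 CPM. Per length, H2-K1 stood at 0.548 to 0.857 of H2-D1 in 5 libraries and at 2.09 in No364. The hepatocyte marker sum of 142817 CPM sits in that same library, and its part in these levels was not tested. Of the 51-base windows, 9.22% of H2-K1 and 12.2% of H2-D1 also occur in other genes, most often in H2-Q10 and H2-Q1, respectively. H2-Q10 was at 1474 CPM in No364 (below), and the part of shared reads in these levels was not tested. With the mean level of the hepatocyte markers as a covariate the log2 fold change of B2m was -0.25 and that of H2-K1 was 0.41. This covariate mainly sets No364 apart from the other libraries, much as leaving No364 out does. Hepatocyte content and any other trait of No364 cannot be told apart by this fit.

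Nlrc5, the transactivator of class I genes, had the single fitted difference below 0 in the pathway. It was at 63.7, 4.87 and 5.46 CPM (Cd44+/+) against 6.86, 6.77 and 26.0 CPM (Cd44-/-). Its log2 fold change of -0.90 became 1.34 without No244, the library with 55.2% mitochondrial counts. Like H2-K1 and H2-D1, it was lowest in No316 and No368 and highest in No244 or No364.

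**Figure D5:**
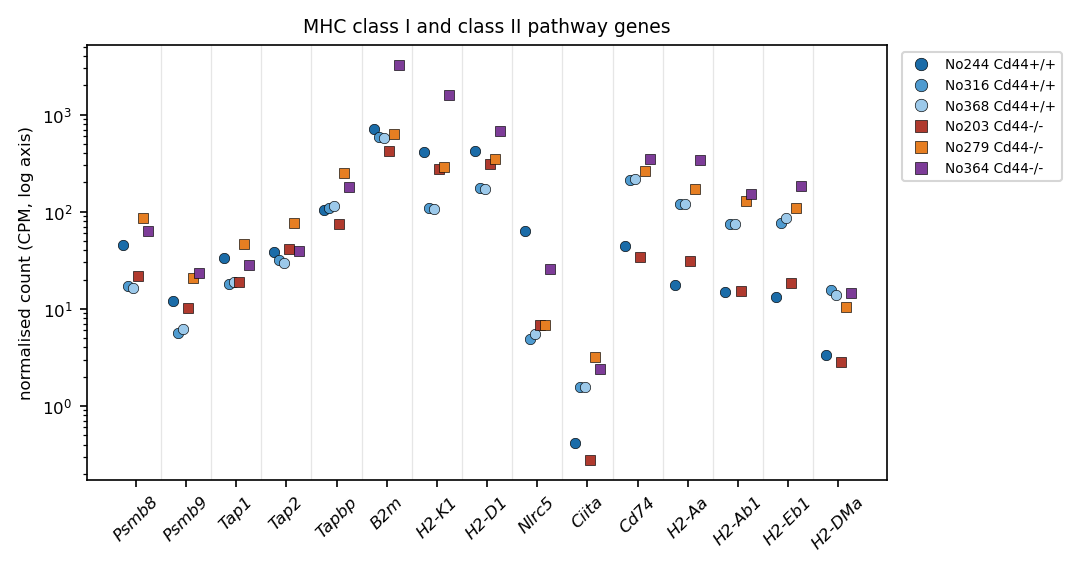
Level in each of the 6 tumors (CPM, log axis) of the 9 class I and 6 class II pathway genes, circles for Cd44+/+ and squares for Cd44-/-. No316 and No368 are low for 7 of the 9 class I genes, whereas No244 and No203 are low for the class II genes.

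The class II genes sorted the tumors otherwise. Cd74, the invariant chain that guides class II molecules to their loading compartment, was at 44.5, 212 and 219 CPM (Cd44+/+) against 34.0, 262 and 350 CPM (Cd44-/-). H2-Aa, the alpha chain of the class II molecule I-A, was at 17.7, 121 and 120 CPM and at 30.8, 173 and 340 CPM. In both genes 1 tumor of each genotype was low and the rest were high. H2-Ab1 and H2-Eb1, the beta chains of I-A and I-E, followed in the same manner, with 14.9 and 13.4 CPM in No244 and 15.3 and 18.4 CPM in No203 against 73.9 to 151 and 76.7 to 185 CPM in the other libraries. Per length, the ratio of H2-Aa to H2-Ab1 stayed between 0.806 and 1.53 and that of Cd74 to H2-Ab1 between 3.10 and 4.57, although the levels themselves ranged more than 10-fold for each of H2-Aa, H2-Ab1, H2-Eb1 and Cd74.

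The master regulator Ciita was the least abundant gene of the set per length (mean 0.165 CPM per kb) and showed the same split, with 0.420 CPM in No244 and 0.278 CPM in No203 against 1.55 to 3.20 CPM. H2-DMa, which edits the peptides on class II molecules, was at 3.36 and 2.82 CPM in these tumors and 10.5 to 15.8 CPM in the others, and was the single class II gene highest in No316 and No368. None of the 6 had an unadjusted p under 0.05, and their log2 fold changes lay between -0.25 and 1.07. The macrophage marker sum was 511 CPM in No244 and 726 CPM in No203, 1340, 1356 and 998 CPM in No316, No368 and No279, and 516 CPM in No364. A separate sum of 5 markers of Kupffer cells, the macrophages of the liver, was 126 CPM in No364 and 11.0 CPM in No203. In the other libraries it was 0.336 to 1.12 CPM. Of the 10 macrophage markers 5 were lower in both No244 and No203 than in every other library, as were 2 of the 8 dendritic cell markers, all 6 class II genes and 14.2% of all genes tested, a count made after the class II values had been seen. Among the macrophage markers that did not share this split was Csf1r, at 278 and 252 CPM in No244 and No203 and 98.02 CPM in No364. B cell markers summed to 1.32 to 8.74 CPM in Cd44+/+ and 1.42 to 6.80 CPM (Cd44-/-), with Pax5 at 0 in at least 1 tumor. The part of these cells in the class II levels was not tested.

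Of 120 further genes of the pathway, 118 were found and 102 were tested, and 68 of the 102 fitted differences were above 0 (median log2 fold change 0.59). An unadjusted p under 0.05 was reached by 5 of them (4.90%, against 10.7% of all genes tested), 4 higher and 1 lower in Cd44-/- tumors. The 3 smallest belonged to antigen presentation. Psme2, a subunit of the proteasome activator PA28, was at 32.7, 31.8 and 32.9 CPM (Cd44+/+) against 65.6, 71.0 and 103 CPM (Cd44-/-), with a log2 fold change of 1.30 (SE 0.32, edgeR adjusted p = 0.452). The groups did not overlap. The class I-like gene H2-Q10, which encodes a soluble molecule secreted by the liver, was at 1474 CPM in No364 and 2.05 to 8.64 CPM elsewhere. H2-T23, which encodes the nonclassical molecule Qa-1, was at 10.9 to 12.3 CPM in Cd44+/+ and 16.5, 33.4 and 171 CPM (Cd44-/-).

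Among these other genes, 51 further interferon-induced genes were tested, and No203 was the lowest tumor for 42 of them (82.4%), against 13.2% of all genes tested. It was the highest for none. Of 26 further antigen presentation genes, 17 were highest in No364. The 13 receptor kinases, factors and negative regulators had a median log2 fold change of -0.15, and the 12 sensors of nucleic acids and their adaptors one of 0.56.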

How the data were processed

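Total RNA of the 6 tumors had been made into stranded mRNA libraries and sequenced as single-end reads of 51 bases. The labels name the tissue osteosarcoma, while their extraction text speaks of cell lines and the study's methods of tumor tissue. The authors aligned reads to GRCm38 with HISAT2 2.0.2 and deposited raw counts per gene from featureCounts (Subread 2.0.0), after bcl2fastq 1.8.4, per the submitters' processing notes. Strand and multimapping settings of the counting were not given in the sources used here. Of the 46 genes, 22 overlap another annotated gene, 9 on the same strand, and 8 share over 10% of their 51-base transcript windows with another gene. The reference is C57BL/6, and MHC genes differ between the strains crossed here.

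Of 39179 counted genes, 37693 received a symbol from GENCODE M21 (0 rows named no gene, and all 6 count columns were used). The genotypes were compared with edgeR 4.0.16 (R 4.3.3): filterByExpr defaults, TMM factors and a quasi-likelihood test over all 6 libraries without covariates, adjusted over the 16839 genes kept. The common dispersion was 0.501, a biological coefficient of variation of 0.708. The labels number each tumor but do not name separate mice, so p-values measure the spread between these samples, part of which may be technical. The near-identical No316 and No368 entered this fit as separate samples, so its SEs and p-values may understate the spread between independent tumors. With the pair summed, 761 genes had an unadjusted p under 0.05, against 1810 as reported. Intervals and floors cover counting error only. The script was tested on simulated data. Levels between genes were divided by merged exon length.

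The 46 genes and all lists were chosen with earlier results of these data known. Full statistics were given to the 12 genes with the smallest unadjusted p, and values per tumor also to the gene of each role with the highest level per length and to that with the largest ratio between samples. In the further list, 2 symbols (Gbp5 and Gbp6) were not found, and others were matched by synonym. Alternatives were other scalings, 2 other filters on low counts, DESeq2 1.42.0, limma-voom (limma 3.58.1), No316 and No368 summed, a hepatocyte covariate and each tumor left out. Promoters came from RefSeq (GRCm38.p6).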

Additional observations from a re-analysis of the deposited data

How the results depend on the processing

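The number of the 46 genes with an unadjusted p under 0.05, 6 as reported, was 11 with DESeq2, 1 with No316 and No368 summed, 2 with the hepatocyte covariate and 1 to 19 with 1 tumor left out (1 without No368, 2 without No316, 2 without No364, 19 without No203). The number whose genotypes did not overlap, 5, was 5 to 30 with 1 tumor left out (12 without No244, 30 without No203, 9 without No279, where 39.7%, 37.8% and 29.3% of all genes did not overlap, against 19.1% as reported). It was 4 with DESeq2 size factors and with mitochondrial genes left out (2 above and 2 below in each), against 19.1% and 19.0% of all genes. With library size alone it was 4 above and 0 below, against 12.5% of all genes. Irf8 and Ifngr1 thus overlapped on that scale. Over all genes, 1810 had an unadjusted p under 0.05, 1197 with library size alone, 761 with the pair summed and 763 to 3085 with 1 tumor left out (763 and 784 without No316 or No368, 3085 without No203). DESeq2 called 419 genes at an adjusted p under 0.05 where edgeR called 0. The median log2 fold change of the 46 genes, 0.86, was 0.47 to 1.30 with 1 tumor left out. In 2 alternatives chosen after seeing the data, DESeq2 on the summed pair called 146 genes and 6 of the 46 had an unadjusted p under 0.05, and edgeR with the pair summed and without No364 had 0 of the 46 and 639 genes.

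Of the 46 genes, 33 kept the direction of their log2 fold change in all 17 alternatives and 13 reversed in at least 1, in 34 of 779 values. With library size alone these were Stat2 (0.016), Irf1 (-0.0067) and Ifnar2 (-0.12), and with limma-voom Stat2 (0.026) and Nlrc5 (0.10). With the hepatocyte covariate they were B2m (-0.25), Oas2 (0.00040), Bst2 (-0.091), Irf9 (-0.17), Ifnar2 (-0.48), Ifngr2 (0.0025) and Cd74 (-0.024). With the pair summed and without No364 they were B2m (-0.30), Bst2 (-0.13), Irf9 (-0.35), Ifnar2 (-0.36) and Mx2 (-0.30). With 1 tumor left out the reversing genes ranged as follows: Stat2 from -0.51 to 0.46, Nlrc5 from -1.84 to 1.34, Irf1 from -0.0083 to 0.23, Ifnar2 from -0.46 to 0.41, Cd74 from -0.092 to 0.91, H2-DMa from -0.73 to 0.15, Oas2 from -1.38 to 0.19, Oasl2 from -0.76 to 0.90, B2m from -0.24 to 1.60, Bst2 from -0.10 to 1.79, Irf9 from -0.15 to 0.79 and Mx2 from -0.011 to 1.83. The cause was not tested, beyond the fewer samples of each left-out fit.

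No paired analysis was possible because the groups share no replicate numbers. A minimum of 10 counts in every tumor left 43 of the 46 genes (Ciita, Mx1 and Mx2 were dropped). Depth limits the interferon genes, all at or under 3 counts.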
